A study of Mus musculus with 4 samples.

Results

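The 6 genes described here, which serve glucose transport, the release of glucose from glucose-6-phosphate or the sensing of glucose, were followed in 4 RNA sequencing libraries of mouse pancreatic islets. They are the glucose transporter genes Slc2a2 and Slc2a1, the glucose-6-phosphatase genes G6pc2 and G6pc3, the glucose-6-phosphate transporter gene Slc37a4, and Mlxipl, which encodes the transcription factor ChREBP. They were chosen by symbol, and each matched 1 of the 54532 genes in the deposited table, so all 6 members were found. The libraries came from 2 genotypes, both of male C57BL/6 mice aged 10 to 12 weeks, with 2 libraries carrying a miR-29a/b-1 transgene (transgenic 1 and 2) and 2 of wild type (wild type 1 and 2). Per the series' design text the transgene overexpresses these microRNAs in pancreatic beta cells. No source used here names the promoter that drives it. Nothing in the labels tells whether libraries are separate mice, pools of mice or repeats of 1 preparation, so a p-value here speaks for the scatter of 4 libraries, part or all of which may be technical.

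Glucose enters the mouse beta cell mainly through GLUT2, the product of Slc2a2, a transporter of high capacity and low affinity. Once inside it is phosphorylated to glucose-6-phosphate, and its further breakdown drives insulin release. G6PC2, a phosphatase of the endoplasmic reticulum found mainly in islets, turns glucose-6-phosphate back into glucose, while the translocase encoded by Slc37a4 brings its substrate into the endoplasmic reticulum. ChREBP is activated as glucose metabolism rises, binds DNA together with MLX, and switches on genes of glycolysis and fat synthesis.

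The microRNAs of the transgene recognise messages through their seed, bases 2 to 8 of the mature strand, and the sequences are shown because the seed defines which of the 6 messages hold a match. The seed is in capitals in the RefSeq sequences of build GRCm38.p6, from chr6:31062673-31062694 and chr6:31063025-31063047, both on the minus strand.
mmu-miR-29a-3p: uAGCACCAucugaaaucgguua
mmu-miR-29b-3p: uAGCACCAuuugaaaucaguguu

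Both share the seed AGCACCA, whose pairing partner in DNA letters is TGGTGCT. The longest annotated 3' UTR of each member was searched for these 7 letters on the message strand in GENCODE M21 (GRCm38). Slc2a2 held 2 matches in a 3' UTR of 3883 bases and Slc37a4 held 1 in a 3' UTR of 500 bases, shown here 5′ to 3′ on the plus strand with the match in capitals.
Slc2a2, chr3:28729760-28729789: cttggatggagTGGTGCTtcctccatagtc
Slc2a2, chr3:28731290-28731319: ttctgaatgatTGGTGCTgctgctgtttat
Slc37a4, chr9:44402585-44402614: ctgaacctccaTGGTGCTgcaagttaccag

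The 3' UTRs searched of Slc2a1, G6pc2, G6pc3 and Mlxipl did not hold these 7 letters. Of 10688 genes compared with a 3' UTR of at least 50 bases, 15.5% held a match, and of the 845 whose 3' UTR was within 0.25 of that of Slc2a2 on the log2 scale of length, 35.0% did. Both shares are for at least 1 match. No share was computed for 2 matches or for the length of the 3' UTR of Slc37a4. The 3' UTRs that held a match had a median length of 2433 bases. A match is a description of the sequence and not a measured site. Mature microRNAs are not read in libraries of long RNA, and the loci of the transgene had almost no reads. Mir29b-1 had 0 reads in every library, and Mir29a had 0 in both transgenic libraries against 0 and 3 in wild type 1 and 2, so neither locus checks the genotype labels.

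The deposited unit is FPKM (fragments for each kilobase of a gene, scaled by library), so levels can be compared between genes. Reads recovered from them summed to 23654135 and 21670854 in transgenic 1 and 2 and to 23730364 and 27080907 in wild type 1 and 2. The totals by which FPKM had been scaled differed from these sums. They were 1.09 and 0.970 times the sums in transgenic 1 and 2, and 1.006 and 0.957 times in wild type 1 and 2. The 12716 genes with at least 1 FPKM in at least 2 libraries were tested with limma on log2(FPKM + 1), a scale that understates the fold of low genes, and all 6 members were among them. Libraries of the same number lay closer together than libraries of the same genotype, with Pearson's r across genes, which are not independent replicates, of 0.985 and 0.989 within numbers 1 and 2 against 0.950 within either genotype. What a number stands for is not in the labels, so each genotype difference is also given within each number. Markers of the labelled tissue were high, with Ins2, the main insulin gene, taking 12.8% and 25.5% of the reads in transgenic 1 and 2 and 20.1% and 26.6% in wild type 1 and 2, while markers of acinar cells, the exocrine cells around islets, were present in every library.

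No member passed the test between transgenic and wild-type islets, and within a library number their log2 fold changes, transgenic over wild type, lay between -0.28 and 0.41. The threshold was a Benjamini-Hochberg adjusted p of 0.05 in limma, which called 0 of the 6 members and 0 of all genes compared (0%). Before adjustment, 83 of the 12716 genes compared had a p under 0.05, a share below 0.05. This fit had no term for the library number, so differences between numbers added to the scatter it tested against. Of all genes compared, voom called 0 when run on the reads recovered from FPKM. With the library number as a further term, voom called 2.36% of all genes and 0 members, and 0.613% and 0 members once a curve on GC content was removed. Of the members, 3 lay above wild type in both numbers (33.5% of all genes compared did), 0 lay below in both (27.4%) and 3 moved in opposite directions in the numbers (38.9%). The median log2 fold change was 0.09 over the 6 members and 0.01 over all genes compared. Acinar markers were higher in transgenic libraries of both numbers, with 10 of 10 at a positive log2 fold change, none called, and their part in these values was not tested.

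**Figure D1:**
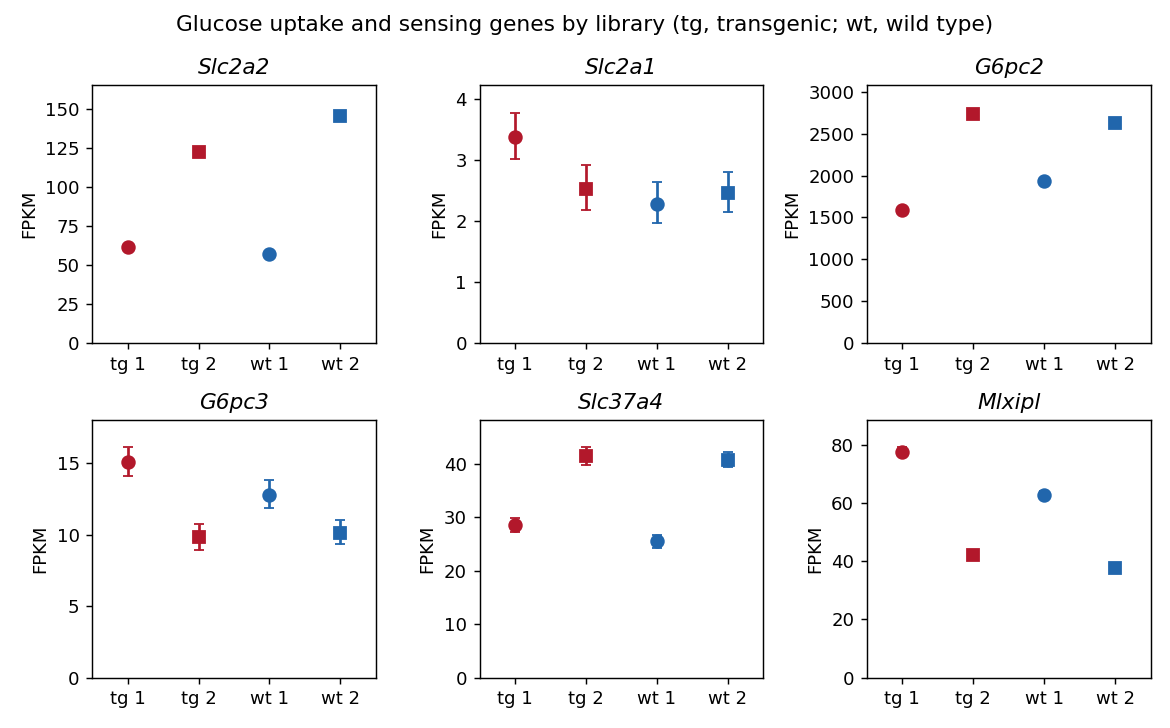
FPKM of each gene (y axis, from 0, own scale per panel) in transgenic 1 and 2 (red) and wild type 1 and 2 (blue), with circles for libraries numbered 1, squares for those numbered 2, and bars for the 95% exact Poisson interval of the read count, which covers counting error only and is often smaller than the symbol. In 5 of the 6 panels the squares lie apart from the circles in both genotypes, and Slc2a1 is the exception. The numbers did not overlap for 66.8% of all genes compared.

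Slc2a2 (ENSMUSG00000027690, GRCm38 chromosome 3, 28697903 to 28731359) encodes GLUT2 and was the most abundant glucose transporter message in the libraries numbered 2. It lay at 61.3 and 122 FPKM in transgenic 1 and 2, against 57.3 and 146 FPKM in wild type 1 and 2. The genotypes overlapped, since both libraries numbered 2 were above both numbered 1. Transgenic islets were slightly above wild type in number 1 (log2 fold change 0.10) and below in number 2 (-0.25). Over all 4 libraries the log2 fold change was -0.08 ± 0.58 (standard error, n = 2 per genotype, limma adjusted p = 1.00), with a 95% interval of -1.62 to 1.47. In whole islets, fewer cells of a type and less RNA per cell cannot be told apart.

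Between the numbers Slc2a2 moved furthest of the members. It averaged 134 ± 16.7 FPKM in the libraries numbered 2 and 59.3 ± 2.81 FPKM in those numbered 1 (SD, n = 2 each). The ratio was 1.99 within transgenic and 2.54 within wild-type islets. On the log2(FPKM + 1) scale the difference was 1.16 ± 0.12 (limma adjusted p = 0.00581, n = 2 per number), and 2.74% of all genes compared had a larger difference in either direction.

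Slc2a1 (ENSMUSG00000028645, chromosome 4, 119108711 to 119137983) encodes GLUT1, the high-affinity transporter of many cell types and the main one of human beta cells. It was the lowest of the 6, at 3.37 and 2.52 FPKM in transgenic 1 and 2 against 2.28 and 2.45 FPKM in wild type 1 and 2, from 305 and 186 reads and from 191 and 223 reads. The genotypes did not overlap, which held for 1 of the 6 members and for 21.3% of all genes compared (12.2% with transgenic higher and 9.03% with transgenic lower). The counting intervals of transgenic 2 (2.18 to 2.91 FPKM) and wild type 2 (2.14 to 2.80 FPKM) covered each other, and transgenic 1 (3.01 to 3.78 FPKM) stood above the other 3. The log2 fold change was 0.41 between the libraries numbered 1, 0.03 between those numbered 2 and 0.22 ± 0.16 over all libraries (limma adjusted p = 1.00, n = 2 per genotype, 95% interval -0.22 to 0.66). It was also the single member not called between numbers, at -0.12 ± 0.15 (limma adjusted p = 0.604). Within its borders Mir1957a, Gm12867 and Gm12868 had between 0 and 16 reads each, and no source used here tells whether counting took strand into account.

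Per length, Slc2a2 exceeded Slc2a1 by 18.2-fold and 48.4-fold in transgenic 1 and 2 and by 25.1-fold and 59.4-fold in wild type 1 and 2. Among the 12 facilitative glucose transporter genes, 6 were high enough to be compared. Slc2a5, which encodes the fructose transporter GLUT5, was of similar abundance, at 86.8 and 79.7 FPKM in transgenic 1 and 2 against 83.6 and 75.8 FPKM in wild type 1 and 2. It therefore led Slc2a2 in both libraries numbered 1 and trailed it in both numbered 2. Slc2a2 held 57.4% and 62.7% of the family's summed FPKM in transgenic 2 and wild type 2, against 38.0% and 37.4% in transgenic 1 and wild type 1. Slc2a8 averaged 3.47 FPKM and Slc2a13, which encodes a proton myo-inositol cotransporter, 2.23 FPKM over the 4 libraries. Slc2a3 and Slc2a4, the neuronal and the insulin-responsive transporter genes, stayed at or below 0.495 and 0.144 FPKM. The 6 sodium glucose cotransporter genes were all below the level compared, with summed values of 1.01 to 1.21 FPKM per library.

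**Figure D2:**
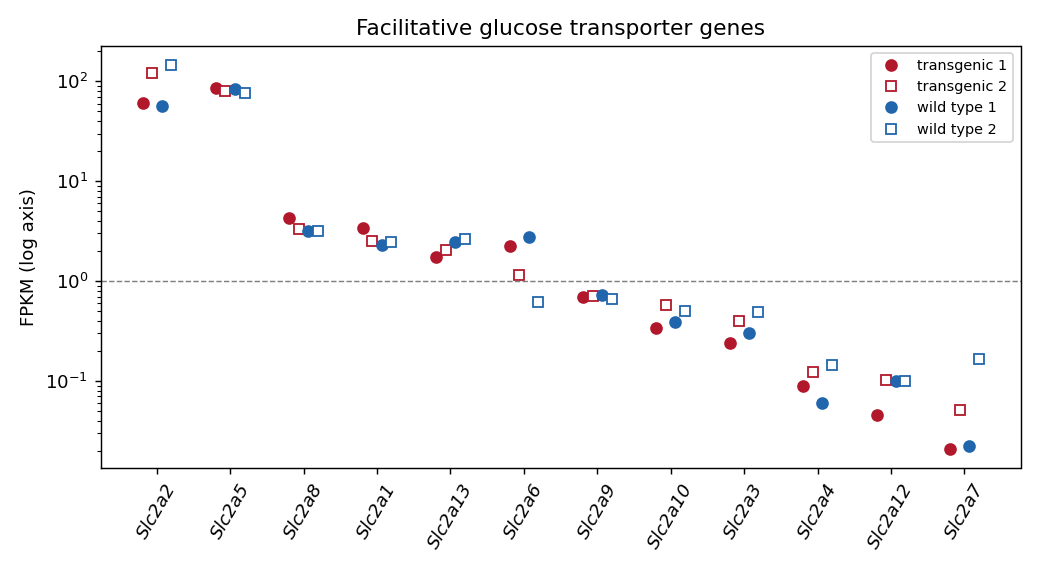
FPKM of the 12 facilitative glucose transporter genes (y axis, log scale), ordered by mean, in transgenic 1 and 2 (red) and wild type 1 and 2 (blue), with filled circles for libraries numbered 1, open squares for those numbered 2, and a dashed line at 1 FPKM. Slc2a2 and Slc2a5 stand above the other 10, and the symbols of Slc2a2 separate by library number while those of Slc2a5 lie between 75.8 and 86.8 FPKM.

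G6pc2 (ENSMUSG00000005232, chromosome 2, 69211073 to 69227841) was by far the most abundant of the 6 and ranked 14 among the genes compared in transgenic 1 and wild type 1 and 11 in transgenic 2 and wild type 2. It lay at 1592 and 2737 FPKM in transgenic 1 and 2, against 1936 and 2623 FPKM in wild type 1 and 2. The genotypes overlapped, with transgenic islets below wild type in number 1 (log2 fold change -0.28) and above in number 2 (0.06). Over all libraries the difference was -0.11 ± 0.35 (limma adjusted p = 1.00, n = 2 per genotype, 95% interval -1.05 to 0.83). Between numbers it averaged 2680 ± 80.5 FPKM in the libraries numbered 2 and 1764 ± 243 FPKM in those numbered 1 (SD, n = 2 each). That rise of 0.61 ± 0.13 was called (limma adjusted p = 0.0320). With a library left out, which leaves 1 arm with a lone library assumed to vary like the others, it was not called without transgenic 1 (adjusted p = 0.0698), transgenic 2 (0.126) or wild type 2 (0.109).

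G6pc3 (ENSMUSG00000034793, chromosome 11, 102189620 to 102194081) encodes the phosphatase that most tissues express. It lay at 15.1 and 9.81 FPKM in transgenic 1 and 2, against 12.8 and 10.1 FPKM in wild type 1 and 2. The genotypes overlapped, with transgenic islets above wild type in number 1 (log2 fold change 0.22) and below in number 2 (-0.04). Over all libraries the difference was 0.09 ± 0.25 (limma adjusted p = 1.00, n = 2 per genotype, 95% interval -0.58 to 0.76). Unlike G6pc2 it was lower in the libraries numbered 2, at 9.97 ± 0.228 FPKM, than in those numbered 1, at 13.9 ± 1.61 FPKM (SD, n = 2 each). That fall of -0.44 ± 0.11 was called (limma adjusted p = 0.0399), but not without transgenic 1 (adjusted p = 0.102), transgenic 2 (0.132) or wild type 2 (0.114). G6pc, the phosphatase gene of liver and kidney, was listed at 0 in 3 libraries and at 0.059 FPKM in transgenic 2.

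Slc37a4 (ENSMUSG00000032114, chromosome 9, 44396852 to 44402968) lay at 28.5 and 41.4 FPKM in transgenic 1 and 2, against 25.5 and 40.7 FPKM in wild type 1 and 2. Transgenic islets were above wild type in both numbers, by 0.16 and 0.02, and the genotypes overlapped. The difference over all libraries was 0.09 ± 0.32 (limma adjusted p = 1.00, n = 2 per genotype, 95% interval -0.76 to 0.94). The libraries numbered 2 averaged 41.1 ± 0.449 FPKM and those numbered 1 averaged 27.0 ± 2.15 FPKM (SD, n = 2 each), a rise of 0.59 ± 0.10 (limma adjusted p = 0.0161). Its relative Slc37a3 rose as well (0.43 ± 0.09, limma adjusted p = 0.0271), while Slc37a1 was at -0.16 ± 0.11 (adjusted p = 0.343). A further 6 genes were listed for the use of glucose-6-phosphate or the steps next to it. Among them were Gpi1 of glycolysis and G6pdx of the pentose phosphate pathway. They had 0 calls in either comparison, where 0% of all genes compared were called between genotypes and 20.7% between numbers. Their median difference between numbers was -0.14, against 0.006 over all genes compared.

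Mlxipl (ENSMUSG00000005373, chromosome 5, 135089890 to 135138382) lay at 77.7 and 42.0 FPKM in transgenic 1 and 2, against 62.9 and 37.8 FPKM in wild type 1 and 2. Within each number the transgenic library was the higher, by 0.30 and 0.15 on the log2 scale, yet both libraries numbered 1 were above both numbered 2, so the genotypes overlapped. Over all libraries the difference was 0.22 ± 0.41 (limma adjusted p = 1.00, n = 2 per genotype, 95% interval -0.87 to 1.32). Genes within 1 percentage point of its GC content of 56.6% had a median genotype difference of 0.13. Between numbers Mlxipl averaged 39.9 ± 2.97 FPKM in the libraries numbered 2 and 70.3 ± 10.5 FPKM in those numbered 1 (SD, n = 2 each). That fall of -0.80 ± 0.13 (limma adjusted p = 0.0162) was not called without transgenic 1 (adjusted p = 0.0513).

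Of the other 5 genes of the ChREBP family and its partners, 2 fell and 0 rose between numbers, where 10.6% of all genes compared fell and 10.1% rose. They were Mlxip, the close relative of ChREBP also called MondoA (-0.41 ± 0.09, limma adjusted p = 0.0322), and Mnt, a repressor that pairs with the same partners (-0.64 ± 0.13, adjusted p = 0.0243). Mlx itself was at -0.34 ± 0.09 (limma adjusted p = 0.0512). Among ChREBP targets, of 11 compared from a list of 13 known from other studies, 0 were called in either comparison (20.7% of all genes between numbers), and their median difference between numbers was 0.07. Txnip, a strong ChREBP target that restrains glucose uptake in many cells, lay at 274 and 256 FPKM in transgenic 1 and 2 against 189 and 247 FPKM in wild type 1 and 2. Its genotypes did not overlap, as for 21.3% of all genes compared. The log2 fold change, transgenic over wild type, was 0.53 in number 1 and 0.05 in number 2, and it was not called. Pklr, the pyruvate kinase gene of liver and beta cells, lay between 3.37 and 3.75 FPKM in all 4 libraries. Other targets were less even. Rgs16 lay at 42.0 and 25.1 FPKM in transgenic 1 and 2 against 25.9 and 26.2 FPKM in wild type 1 and 2. Khk differed most between numbers (0.61 ± 0.19, limma adjusted p = 0.0733). Of the 11 targets, 8 had a positive difference between numbers and 3 a negative one. Acly, whose enzyme makes acetyl-CoA for fat synthesis, was at 0.23 ± 0.13 between numbers (limma adjusted p = 0.259).

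Factors of the bHLH class, to which ChREBP and MLX belong, bind E-boxes. RefSeq promoters of build GRCm38.p6, from 250 bases before to 50 after each start, were therefore searched for CACGTG, which reads the same on both strands. Among the 10 promoters of the 6 genes, matches were found in the promoter of G6pc3 and in the upstream promoter of Mlxipl, and they are shown on the plus strand with the E-box in capitals because they are the matches found. The first and second windows overlap by 10 bases.
G6pc3, chr11:102189588-102189617: acgctggcagccCACGTGctagcaacagcg
G6pc3, chr11:102189608-102189637: agcaacagcggcCACGTGgggccttgagga
Mlxipl, chr5:135089780-135089809: gcggctgccatcCACGTGctaaggagagaa

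Of all 32851 promoters of that length, 7.15% held CACGTG and 0.594% held 2 or more, as G6pc3 does. Its 2 matches lie at -99 and -79 from its RefSeq start, which is downstream of the gene start of 102189620 given above. The window of the second match, chr11:102189608-102189637, spans that gene start. The search took single copies of CACGTG with no set spacing, so it does not describe sites of ChREBP with MLX. A match is a description and not a binding site, and the deposited values do not separate the 2 starts of Mlxipl.

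**Figure D3:**
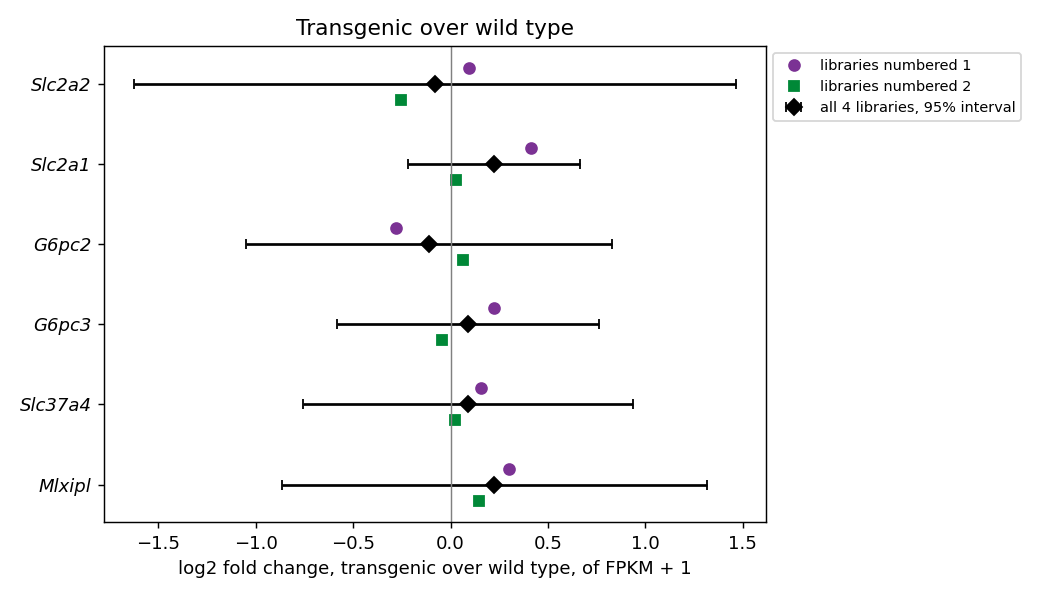
Log2 fold change of transgenic over wild type on the log2(FPKM + 1) scale (x axis) for each gene (rows), within the libraries numbered 1 (circles), within those numbered 2 (squares) and over all 4 libraries (diamonds, with the 95% interval of limma). Every interval spans 0, and the widest, of Slc2a2, runs from -1.62 to 1.47.

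Between numbers limma called 5 of the 6 members, against 20.7% of all genes compared, with 3 higher in number 2 (10.1% of all genes) and 2 lower (10.6%). The comparison was made because earlier results of these data showed libraries of the same number lying together. Its p-values and calls therefore describe that separation and are not an independent test of it. The numbers did not overlap for 5 of the 6 members, against 66.8% of all genes. Of the 58 other genes on the pathway lists, 38 were compared, and 2 rose and 3 fell, or 13.2%. The transcription factor gene Foxa2, known to act at islet promoters, was the other riser beside Slc37a3 (0.50 ± 0.11, limma adjusted p = 0.0345). It was the single call among 8 listed factors known to act at the promoters of Slc2a2 or G6pc2, and Pdx1, the beta cell regulator among them, was at 0.13 ± 0.09 (adjusted p = 0.335). Slc2a6, a transporter gene of low level, completed the fallers beside Mlxip and Mnt (-0.91 ± 0.17, adjusted p = 0.0226). Of the calls over all genes 48.6% were higher in number 2, against 12.8% with FPKM rescaled to a common sum (TPM) and 27.7% with voom. The share was 46.5% with each library rescaled by its median ratio over genes and 47.0% with a curve on GC content removed. With no filter on low values none of the 6 members was called, and with TPM G6pc2, G6pc3 and Slc37a4 were not. Leaving out a library lowered the 2630 calls over all genes to 835 without transgenic 1, 1822 without transgenic 2, 1681 without wild type 1 and 1469 without wild type 2.

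**Figure D4:**
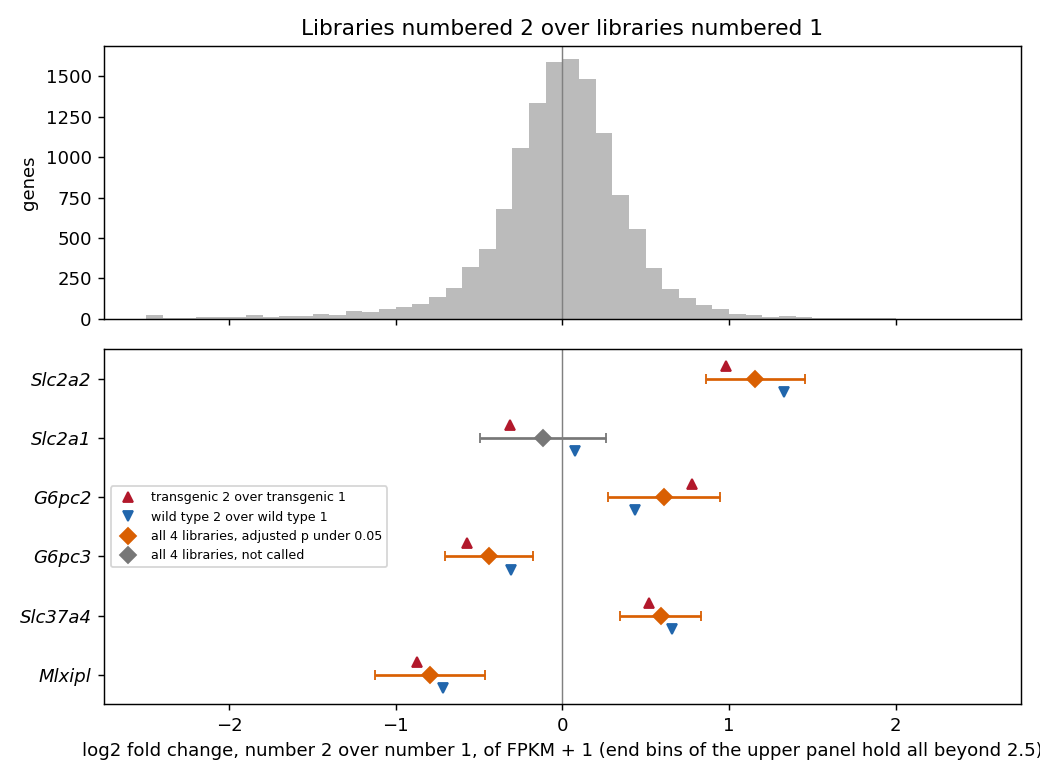
Upper panel, the number of genes (y axis) in each bin of the log2 fold change of libraries numbered 2 over those numbered 1 (x axis, log2(FPKM + 1) scale) for the 12716 genes compared. Lower panel, the same fold for each member over all 4 libraries (diamonds, 95% interval of limma, orange where called) and within transgenic (triangles up) and wild-type islets (triangles down), where Slc2a2, G6pc2 and Slc37a4 lie to the right, Mlxipl and G6pc3 to the left, and Slc2a1 spans 0.

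Other properties of the libraries moved with the number. The 10 acinar markers summed to 1770 and 1053 FPKM in transgenic 2 and wild type 2, against 6533 and 4901 FPKM in transgenic 1 and wild type 1, and 9 of 10 fell. Of 8 beta cell markers 7 had a positive difference and 1, the zinc transporter gene Slc30a8, rose (0.42 ± 0.10, limma adjusted p = 0.0374). The beta cell marker with a negative difference was Ucn3 (-0.25 ± 0.09, limma adjusted p = 0.111). Ins2 was at 0.82 ± 0.27 (limma adjusted p = 0.0813) and was not called. Of 5 alpha cell markers 3 rose, of 4 delta and PP cell markers 2 rose, and of 5 endothelial markers 2 fell, where 10.1% of all genes compared rose and 10.6% fell. Of 3 erythroid markers 2 were compared and 2 rose, at summed values of 8.53 to 20.2 FPKM per library. The lists of duct, stellate and pericyte, and macrophage markers had 0 calls. The remaining alpha cell markers were not called, with the glucagon gene Gcg at -0.04 ± 0.12 (limma adjusted p = 0.818) and Ttr at 0.24 ± 0.10 (0.145). Each of these lists had no marker at 0 in all libraries. Their part in the differences of the 6 members was not tested.

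GC content also differed among the members, at 41.7% for Slc2a2, 44.9% for G6pc2, 54.0% for Slc2a1, 55.5% for Slc37a4, 56.6% for Mlxipl and 57.9% for G6pc3. Genes within 1 percentage point of each had median genotype differences of -0.09, -0.05, 0.08, 0.11, 0.13 and 0.16, in the same order. Their median differences between numbers were 0.10, 0.07, -0.06, -0.09, -0.10 and -0.11. With a lowess curve on GC content removed from each library, an alternative chosen after seeing the data, the same 5 members were called between numbers. They were at 1.05 for Slc2a2, 0.54 for G6pc2, 0.67 for Slc37a4, -0.71 for Mlxipl and -0.35 for G6pc3.

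The order of the levels also depended on the number. In the libraries numbered 2 it ran from G6pc2 through Slc2a2 to Mlxipl and Slc37a4 and then to G6pc3 and Slc2a1. Slc2a2 stood at 2.90 and 3.85 times the level of Mlxipl in transgenic 2 and wild type 2, against 0.788 and 0.910 times in transgenic 1 and wild type 1. Mlxipl and Slc37a4 changed places between transgenic 2 and wild type 2, so these neighbours did not differ beyond their spread in number 2.

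Likeness was measured among 6240 named genes with a mean of at least 5 FPKM, as the root mean square difference of the log2(FPKM + 1) deviations from each gene's mean over the 4 libraries. Closest to Slc2a2 were Hist1h4k (0.03), Ndufa5 (0.04) and Uqcr11 (0.06). Closest to G6pc2 were Hist2h2be (0.03), Enpep (0.03) and Fam162a (0.03), and closest to Slc37a4 were Polr2j (0.02), Mnx1 (0.02) and Epb41l4aos (0.02). Closest to Mlxipl were Safb2 (0.03), Mast3 (0.03) and Nfil3 (0.04), and closest to G6pc3 were Amigo2 (0.01), Sdccag3 (0.02) and Usf1 (0.02). Slc2a1 was left out because its libraries spanned only 0.41 on that scale. With only 4 libraries and 6240 candidates, small differences are easily found. The genes named are therefore a description of pattern and do not show shared regulation.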

How the data were processed

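The submitters' processing notes list HTSeq 0.6.0 and GRCm38, and no aligner could be read from the sources used here. FPKM and gene lengths came from a single table as deposited. FPKM times length gave whole multiples of a step per library, within 0.001, for 100% of values above 0, and these were taken as reads. A gene of 1 kilobase with 1 read has 0.0386 to 0.0476 FPKM, and a count of 0 allows 3 reads. Poisson and other counting intervals cover counting error only.

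Genotypes were compared with limma 3.58.1 (R 4.3.3, trended eBayes), genotype being the only term, on log2(FPKM + 1). Library numbers were compared likewise, a grouping taken up because earlier results of these data showed libraries of the same number lying together. Tests were 2-sided with Benjamini-Hochberg adjustment over all 12716 genes compared and a threshold of 0.05. GC content came from the longest GENCODE M21 transcript (12705 genes), and all 6 members matched RefSeq promoters by symbol.

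Members, lists, tests and named genes (the members, pathway genes called or among the most abundant of their list, and the 3 nearest patterns) were chosen with earlier results of these data known. G6pc, Slc2a3, Slc2a4, Slc2a13, Pklr, Khk, G6pdx, Slc30a8, Ucn3, Gcg, Ttr and the genes overlapping Slc2a1 were named after values were seen. 1 group of pathway genes is not reported here. Alternatives are given at the end.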

Additional observations from a re-analysis of the deposited data

How the results depend on the processing

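Few libraries and a large difference between numbers limit the genotype comparison, whose 95% intervals ran from -0.22 to 0.66 for Slc2a1 and from -1.62 to 1.47 for Slc2a2. Counting error weighs most on Slc2a1, with 186 to 305 reads.

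Libraries share only a number, and with number as a replicate block limma called 0 genes, and Mlxipl came to 0.22 ± 0.08 (adjusted p = 0.464). Same-numbered libraries deviated together from their genotype means (r = 0.775). Voom on the recovered reads with the replicate block called 290 genes higher and 10 lower, and 61 higher and 17 lower with the GC curve removed, with 0 members among them (Mlxipl 0.30, adjusted p = 0.0989, and 0.08, adjusted p = 0.933). That last fit turned Slc2a2 to 0.0313, G6pc3 to -0.0798 and Slc37a4 to -0.0387, and removing the curve from the limma fit (chosen after seeing the data) turned them to 0.0114, -0.059 and -0.0182. Rescaling FPKM to a common sum (TPM) moved the median of all genes by 0.13 and turned Slc2a2 to 0.0627 and G6pc2 to 0.0322, which lay at -0.08 and -0.11 relative to that median. Without each library in turn the genotype difference ran from -0.74 to 0.59 for Slc2a2, -0.50 to 0.28 for G6pc2, -0.20 to 0.37 for G6pc3, -0.21 to 0.66 for Mlxipl, -0.24 to 0.42 for Slc37a4 and 0.0662 to 0.378 for Slc2a1, which came to 0.388 in voom with the replicate block, against 0.22 in limma.

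Between numbers, with no filter on low values, 102 genes were called higher and 172 lower, and no member passed: Slc2a2 at 1.16 (adjusted p = 0.0512), G6pc2 at 0.61 (0.379), G6pc3 at -0.44 (0.117), Mlxipl at -0.80 (0.0793) and Slc37a4 at 0.59 (0.0640). TPM scaling moved the median of all genes by -0.25, called 205 higher and 1399 lower, and left G6pc2 at 0.33, G6pc3 at -0.72 and Slc37a4 at 0.33 uncalled, at 0.57, -0.48 and 0.57 relative to that median. Voom on the recovered reads called 744 higher and 1943 lower, and all 5 members. Without each library in turn, 392 to 765 genes were higher and 443 to 1057 lower, with G6pc2 at 0.47 to 0.75, G6pc3 at -0.55 to -0.33, Mlxipl at -0.95 to -0.65 and Slc2a1 at -0.326 to 0.088, above 0 without transgenic 1. These fits set 2 libraries against 1, and the lone library is assumed to vary like the others. In them Slc2a2 and Slc37a4 were called each time, with adjusted p up to 0.0363 and 0.0439, which says little of their stability. The causes of these changes were not tested.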
